A study of Mus musculus with 4 samples.

Results

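The genes described here are 10 antiviral effectors and closely linked interferon-stimulated genes: Rsad2, Cmpk2, Mx1, Mx2, Bst2, Ifitm3, Ifi44, Ifi27l2b, Rtp4 and Xaf1. They were chosen by name, and 8 of the 10 matched a row among the 32285 genes of the feature table. Mx1 and Mx2, the myxovirus resistance GTPases, matched no row of the feature table used here by symbol or identifier and were not analysed here. The genes were read in small intestinal epithelium of VilCreIfnlr1fl/fl mice (KO), in which Cre driven by the Villin promoter recombines floxed Ifnlr1 in epithelial cells, and of wild-type mice (WT). Ifnlr1 encodes the receptor chain specific to interferon-λ. All mice of both genotypes had received 11 Gy of gamma irradiation with the head, thorax and upper limbs shielded, and the tissue was taken 96 h later by the series design and 3 days later by the extraction protocol. Viable EPCAM+ CD45- cells were sorted, the 3 mice of a genotype were marked with 1 hashtag each (an antibody-borne barcode) and pooled, and each pool gave 1 library of 10x Genomics 3′ transcript counts. Genotype and pool therefore cannot be told apart in any comparison below, unirradiated mice were not analysed here, and the ages of the mice are not given in the sources used here.

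Interferon-λ binds a receptor made of IFNLR1 and IL10RB, and interferon-α and -β bind IFNAR1 and IFNAR2. Signals from both receptors raise transcription of genes that carry interferon-stimulated response elements near their start. In the intestine, interferon-λ signalling acts mainly on epithelial cells. The members act at different steps of virus growth. RSAD2 (viperin) turns CTP into a nucleotide that ends viral RNA chains, and CMPK2 is a nucleotide kinase encoded beside it. BST2 (tetherin) holds budding virions at the cell surface, IFITM3 hinders fusion of virus with endosomes, RTP4 was described as a chaperone of receptors that also limits some viruses, and XAF1 binds the apoptosis inhibitor XIAP. IFI44 is an interferon-induced GTP-binding protein, and Ifi27l2b belongs to the Ifi27 family of small membrane proteins.

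The 8 measured members are protein-coding genes on 6 chromosomes in the mm10 (GRCm38) annotation. Rsad2 (chr12:26442746-26456452, minus strand) and Cmpk2 (chr12:26469204-26479837, plus strand) point away from each other, with 12752 bp between their starts. Bst2 lies at chr8:71534255-71537456, Ifitm3 at chr7:141009586-141010770, Ifi44 at chr3:151730922-151749960 and Ifi27l2b at chr12:103450898-103457223, all on the minus strand. Rtp4 at chr16:23520291-23614222 and Xaf1 at chr11:72301629-72313733 are on the plus strand. RefSeq promoter windows (GRCm38.p6, 250 bases before to 50 bases after the start) were at hand for 6 of the 10 members. The core of the interferon-stimulated response element, searched as GAAANNGAAA on both strands, was found in 3 of these 6 windows, in 20 of 48 windows of a list of other interferon-stimulated genes (41.7%) and in 1131 of 32851 promoter windows of the same length (3.44%). The windows of the 3 members with a response element core are shown, with the core in capitals, since these genes span the bands of genotype difference described further on. Each is cut 30 bases into the transcript and written 5′ to 3′ on the gene's strand, the minus strand for all 3 genes: Rsad2 at chr12:26456423-26456702, Bst2 at chr8:71537443-71537722 and Ifitm3 at chr7:141010715-141010994.
Rsad2: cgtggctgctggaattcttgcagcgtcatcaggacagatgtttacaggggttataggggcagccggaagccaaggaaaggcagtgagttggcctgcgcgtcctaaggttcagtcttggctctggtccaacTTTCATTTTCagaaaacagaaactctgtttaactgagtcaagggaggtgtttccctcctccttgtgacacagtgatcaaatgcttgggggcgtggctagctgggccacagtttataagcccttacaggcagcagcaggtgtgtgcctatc
Bst2: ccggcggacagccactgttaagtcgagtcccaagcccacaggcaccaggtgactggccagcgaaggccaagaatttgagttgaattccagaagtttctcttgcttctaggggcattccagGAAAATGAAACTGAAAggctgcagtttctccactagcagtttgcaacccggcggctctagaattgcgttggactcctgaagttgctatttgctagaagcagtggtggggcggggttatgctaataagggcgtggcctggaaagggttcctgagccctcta
Ifitm3: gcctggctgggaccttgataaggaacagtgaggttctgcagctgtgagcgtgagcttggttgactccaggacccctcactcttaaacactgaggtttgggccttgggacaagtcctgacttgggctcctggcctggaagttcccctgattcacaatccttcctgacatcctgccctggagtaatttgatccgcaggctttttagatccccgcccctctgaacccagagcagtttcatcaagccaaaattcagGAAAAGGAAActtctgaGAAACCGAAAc
The Rsad2 core began 120 bases before the RefSeq start and lay on the opposite strand. Bst2 had 2 overlapping cores, which began 130 and 124 bases before the start. The 2 cores of Ifitm3 began 2 and 19 bases after the annotated start, inside the transcript. The windows of Cmpk2, Ifi44 and Xaf1 did not hold the core with these exact letters, which says nothing of binding there.

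Each member was counted in unique molecular identifiers (UMIs, 1 per captured transcript end) and is given as CPM, its UMIs scaled to a common total of gene UMIs and not divided by gene length. The KO library held 110960113 gene UMIs in 7370 barcodes and the WT library 102915321 in 10453, and 4028 KO and 5563 WT barcodes passed the limits of 1000 UMIs, 500 genes and 25% mitochondrial UMIs. Hashtags placed 1030, 995 and 843 cells in KO mice 1 to 3 (KO1 to KO3) and 845, 866 and 1062 cells in WT mice 1 to 3 (WT1 to WT3), and 9 barcodes occurred in both libraries. The sums per mouse ranged from 14731105 to 35999518 UMIs in KO mice and from 11142876 to 21067444 in WT mice. KO2 and WT2, which carried the hashtags of the same number, stood apart: their cells had median depths of 20575 and 12657 UMIs, against 8527 to 11623 in the other 4 mice, and they held all 185 KO and 91 WT cycling-like cells that had a hashtag. Of the named classes, only enterocyte-like and goblet-like cells reached 20 cells in every mouse. Although the extraction protocol speaks of crypt cells, most cells were enterocyte-like. The epithelial marker list summed to 6345 to 10349 CPM in KO mice and 6963 to 10042 CPM in WT mice, and Ptprc (CD45) stood at 1.5 to 3.12 CPM in KO and 1.71 to 2.44 CPM in WT mice. Over all cells, B and plasma cell markers summed to 1140 CPM in WT2, against 0.0679 to 6.39 CPM in the other mice. Neutrophil markers summed to 33.9 CPM in WT1, against 0.380 to 5.44 CPM in the others. Macrophage, T cell and stromal lists were at most 2.72, 1.79 and 2.85 CPM. The part of these markers in the member results was not tested.

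The receptor genes differed between genotypes by less than the spread between mice. Ifnlr1, the targeted gene, stood at 40.2, 24.0 and 32.8 CPM in KO enterocyte-like cells, against 36.5, 25.9 and 36.0 CPM in WT ones, and at 5.57 ± 2.13 CPM in KO and 5.87 ± 0.81 CPM in WT goblet-like cells (SD, n = 3 each). The 3′ tag need not lie in the deleted part of the gene, which is not given in the sources used here, so this checks nothing about the deletion. Il10rb, the partner chain, averaged 56.4 ± 2.98 CPM in KO and 56.0 ± 3.54 CPM in WT enterocyte-like cells. Of the ligands, Ifnl2, Ifnb1 and Ifng had 0 UMIs in all 6 mice, and Ifnl3 had 1, in WT2.

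In enterocyte-like cells, the absorptive cells and the largest class (2891 KO and 3331 WT cells), the members fell into 3 bands by the ratio of mean KO to mean WT level. Rsad2, Rtp4, Ifi44 and Xaf1 were mostly lost (under 0.25 of WT), Cmpk2 and Bst2 were intermediate, and Ifi27l2b and Ifitm3 were mostly kept (at least 0.5 of WT). The bands are a description. Each of Rsad2, Rtp4, Ifi44, Xaf1, Cmpk2 and Ifi27l2b was lower in all 3 KO mice than in any WT mouse, 6 of 8 members, against 3.02% of the 10676 genes tested in these cells.

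Rsad2 stood at 5.14, 2.90 and 2.50 CPM in KO1 to KO3, against 46.6, 40.6 and 59.5 CPM in WT1 to WT3. The highest KO mouse was far below the lowest WT mouse. The means were 3.51 ± 1.42 CPM in KO and 48.9 ± 9.65 CPM in WT (SD, n = 3 each), a ratio of 0.0718.
Rtp4 stood at 7.22, 2.33 and 5.90 CPM in KO mice, against 45.0, 47.3 and 64.2 CPM in WT mice. Here too the genotypes were wide apart, with a ratio of means of 0.0987. Ifi44 was rare: 0, 0.212 and 0 CPM in KO mice, against 2.01, 6.73 and 2.15 CPM in WT mice. Its KO value rests on 3 UMIs of KO2, against 100 UMIs over the WT mice, which gives a ratio of the pooled counts of 0.0237 with an exact 95% interval of 0.00481 to 0.0714 for counting error only. The WT mice differed among themselves, with WT2 well above the other two. Xaf1 stood at 9.95, 4.88 and 10.9 CPM in KO mice, against 32.3, 36.3 and 48.0 CPM in WT mice, a ratio of 0.221 that put it just inside the mostly lost band.

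Cmpk2 was lower by a smaller factor than its neighbour Rsad2, with 10.6, 6.15 and 9.19 CPM in KO mice, against 20.2, 27.6 and 28.8 CPM in WT mice and a ratio of 0.339. Bst2 stood at 2.41, 10.8 and 2.61 CPM in KO mice, against 7.69, 22.7 and 9.02 CPM in WT mice. Within each genotype the mouse with hashtag 2 was the highest, and KO2 lay above WT1 and WT3, so the groups overlapped. Cluster 9, which KO2 and WT2 held almost alone, was left out as a choice made after seeing the data. Bst2 then stood at 2.42, 2.36 and 2.66 CPM in KO mice, against 7.69, 19.4 and 8.75 CPM in WT mice. Every KO mouse was then under every WT mouse, and the ratio of 0.207 lay in the mostly lost band. Ifi27l2b was the most abundant member by UMIs, with 507, 321 and 592 CPM in KO mice, against 689, 856 and 779 CPM in WT mice, and its KO mice kept 61.1% of the WT mean. Ifitm3 was scarce in these cells, at 1.31, 4.67 and 1.93 CPM in KO mice, against 1.67, 7.53 and 2.90 CPM in WT mice, with hashtag 2 again the highest of each genotype and the genotypes overlapping. Its ratio of means was 0.654, and 0.495 without cluster 9, just under the mostly kept band.

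**Figure D1:**
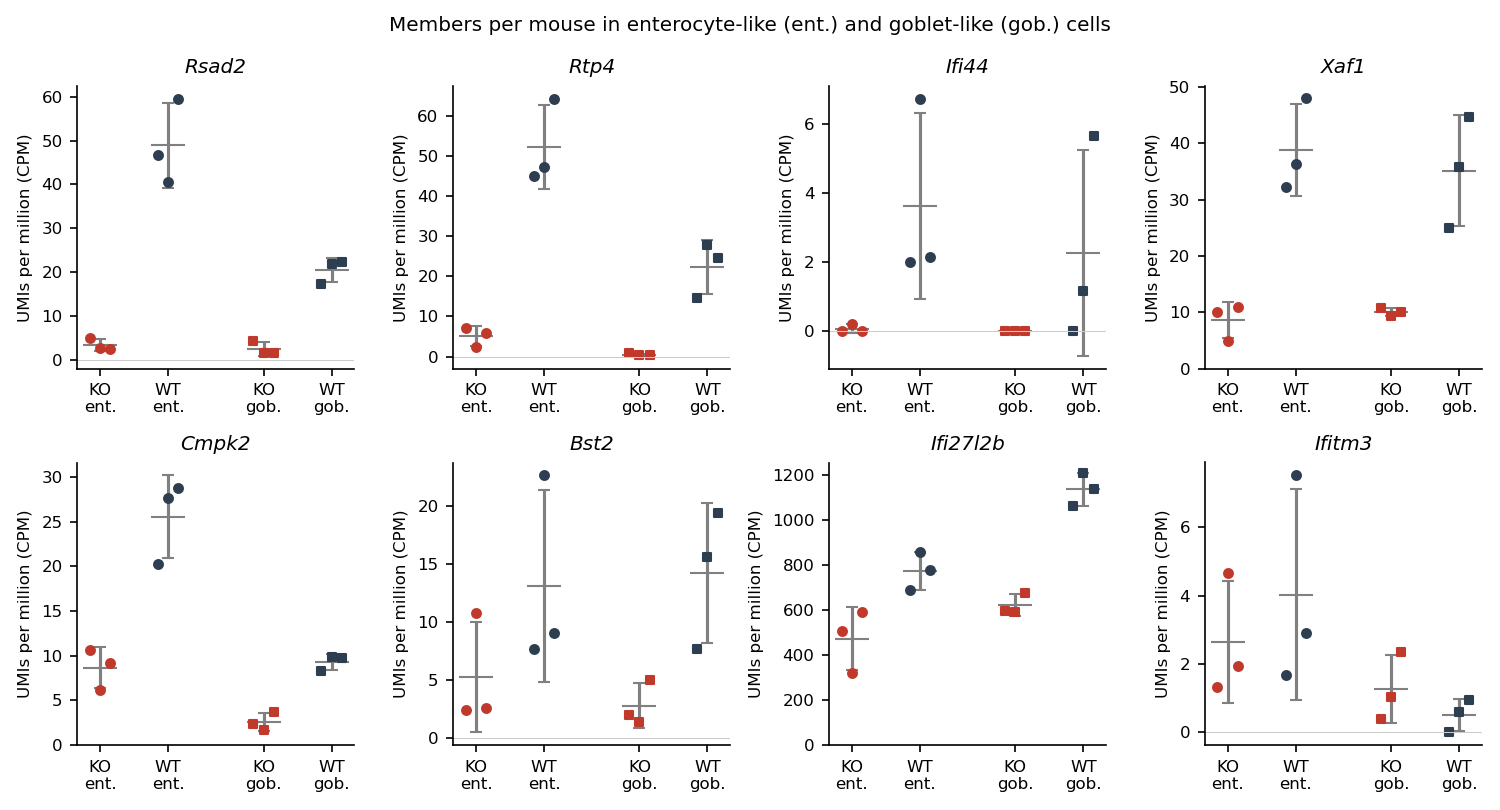
Level of each of the 8 measured members in CPM (linear axis), 1 point per mouse, in enterocyte-like cells (circles) and goblet-like cells (squares), KO in red left of WT in dark blue; bars are the mean and SD of 3 mice. Rsad2, Rtp4, Xaf1, Cmpk2 and Ifi27l2b separate by genotype in both classes, while Ifitm3 overlaps in both and the highest Bst2 values in enterocyte-like cells are those of KO2 and WT2.

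The test across mice gave different calls with and without the hashtag number as a block. In edgeR's quasi-likelihood test without a block, 0 of 8 members and 0% of the 10676 genes passed an adjusted p of 0.05 as lower in KO enterocyte-like cells, although 6 members (and 415 of all genes) had an unadjusted p under 0.05. The unblocked log2 fold changes, KO over WT, were -3.98 ± 0.39 (SE) for Rsad2 (adjusted p = 0.134) and -3.52 ± 0.49 for Rtp4 (adjusted p = 0.181). With mice of equal hashtag number as a block, 7 of 8 members were lower in KO, against 6.58% of genes. Rsad2 then had a log2 fold change of -3.95 ± 0.24 (adjusted p = 0.000156 in the blocked edgeR fit) and Rtp4 one of -3.59 ± 0.25 (adjusted p = 0.000196). The blocked changes of the others were -5.42 ± 0.57 for Ifi44, -2.40 ± 0.20 for Xaf1, -1.75 ± 0.21 for Cmpk2, -1.55 ± 0.23 for Bst2 and -0.91 ± 0.18 for Ifi27l2b, each with an adjusted p of at most 0.0141. Ifitm3, at -0.72 ± 0.27, missed the threshold (adjusted p = 0.104 in the blocked fit). Its unblocked value was -0.73 ± 0.66. Over the alternatives tried, the adjusted p in enterocyte-like cells ranged from 4.34e-15 to 0.888 for Rsad2 and from 2.54e-14 to 0.888 for Rtp4 (edgeR or DESeq2). The labels state no pairing of the mice. Without cluster 9, of whose 213 hashtagged cells 208 came from KO2 and WT2, a choice made after seeing the data, the unblocked edgeR test also called the same 7 members lower, against 2.63% of 10075 genes.

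**Figure D2:**
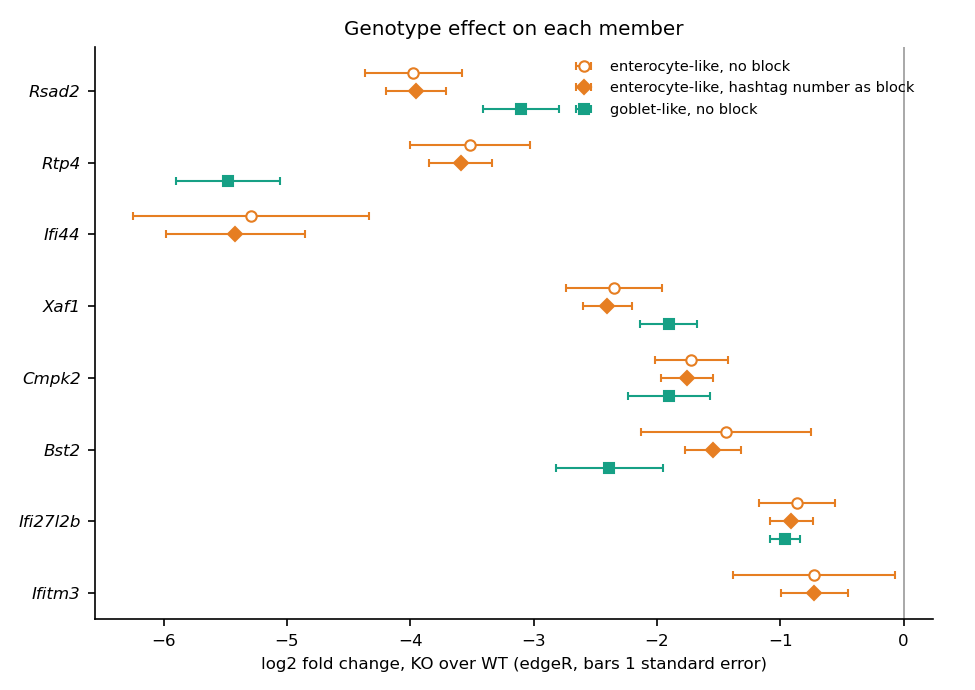
Fitted log2 fold change of each member, KO over WT, with 1 approximate standard error, in enterocyte-like cells without a block (open circles) and with the hashtag number as a block (diamonds) and in goblet-like cells without a block (squares). The block leaves the estimates in place and narrows the errors (for Bst2, 0.69 without and 0.23 with the block); Ifi44 and Ifitm3 had too few goblet-like UMIs to be tested there.

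Goblet-like cells, the mucus-secreting class (344 KO and 729 WT cells), also held lower member levels in KO. The class was made of cluster 5, with 327 KO and 301 WT cells, and cluster 7, with 17 KO and 428 WT cells, whose WT cells had median depths of 28613 and 2724 UMIs. All 6 members that passed the low-count filter there were lower in KO without any block, against 2.57% of 8508 genes, and in each of the 6 every KO mouse was under every WT mouse, against 7.2% of genes. The 6 were Rsad2, Rtp4, Xaf1, Cmpk2, Bst2 and Ifi27l2b. In cluster 5 alone, a choice made after seeing the data, the edgeR test called the same 6, against 2.16% of 8366 genes.

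Rtp4 was almost absent from KO goblet-like cells, at 0.794, 0.344 and 0.335 CPM, against 14.7, 27.7 and 24.5 CPM in WT mice. That is 4 UMIs over 3 KO mice and 176 over 3 WT mice. The fitted log2 fold change was -5.48 ± 0.42 (edgeR adjusted p = 7.76e-06). Rsad2 stood at 4.37, 1.72 and 1.68 CPM in KO mice, against 17.4, 21.9 and 22.3 CPM in WT mice (log2 fold change -3.10 ± 0.31, edgeR adjusted p = 7.96e-05). Bst2, which overlapped in enterocyte-like cells, stood at 1.98, 1.38 and 5.03 CPM in KO goblet-like cells, against 7.65, 15.6 and 19.5 CPM in WT ones, and was lower in KO by -2.39 ± 0.43 (edgeR adjusted p = 0.00683). Xaf1 (-1.91 ± 0.23), Cmpk2 (-1.90 ± 0.33) and Ifi27l2b (-0.96 ± 0.12) were lower by less, with edgeR adjusted p-values of 0.000303, 0.00512 and 0.000359. Ifi27l2b had 596, 590 and 677 CPM in KO mice, against 1061, 1211 and 1137 CPM in WT mice, so its KO goblet-like cells kept 54.7% of the WT mean. By the same bands Bst2, at 19.7% of WT, was mostly lost in goblet-like cells and Xaf1, at 28.5%, intermediate.

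Ifi44 had 0 UMIs in the goblet-like cells of all 3 KO mice, and 0, 1.15 and 5.65 CPM in WT mice, with WT1 at 0 as well. The pooled counts were 0 UMIs in KO and 20 in WT, 18 of them from WT3, and the exact 95% interval of the KO to WT ratio reached 0.2004 for counting error only. Ifitm3 was near its detection limit, with 11 UMIs over the KO mice and 4 over the WT mice.

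The size of the genotype effect was then compared between the classes by a class-by-genotype interaction in edgeR. The test called 0 of 8 members, and 0% of 10486 genes. The nearest was Rtp4, whose fold change was lower in goblet-like than in enterocyte-like cells by -2.07 ± 0.50 on the log2 scale (unadjusted p = 0.0033, adjusted p = 1). Rsad2 differed in the other direction by 0.80 ± 0.33 (unadjusted p = 0.0437, adjusted p = 1 in the edgeR interaction). The other 6 members had unadjusted p-values of at least 0.134.

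Over all cells of a mouse, which include the classes above, 6 of 8 members again had every KO mouse under every WT mouse, against 1.66% of 12944 genes. The edgeR test without a block called 0 of 8 members lower (0% of genes), with 6 members at an unadjusted p under 0.05, and the test with the block called 7 of 8, against 0.973% of genes. Without clusters 9 and 10, which KO2 and WT2 held almost alone, the unblocked edgeR test called 3 of 8, Rsad2, Rtp4 and Ifi44, against 0.078% of 12815 genes. Ifitm3 had a positive estimate, at 0.28 ± 1.15 without and 0.32 ± 0.13 with the block (adjusted p = 0.209 in the blocked edgeR fit), and the unblocked estimate turned negative without KO2 (-1.29), WT1 (-0.11) or WT3 (-0.18). Its level followed the hashtag number: 24.8, 143 and 12.6 CPM in KO mice, against 14.3, 118 and 9.40 CPM in WT mice. KO2 and WT2 were several times above every other mouse, and these are the mice that held the cycling-like cells. Without clusters 9 and 10, Ifitm3 stood at 24.9, 57.4 and 12.8 CPM in KO mice, against 14.3, 54.1 and 9.44 CPM in WT mice. KO2 and WT2 thus stayed the highest of their genotypes, and the part of the cycling-like cells was not tested.

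The reason to look at other classes is that the members are not spread alike over the epithelium. Among the named classes, Ifitm3 was highest in cycling-like and Paneth-like cells. In cycling-like cells it reached 312 CPM in KO (95% Poisson interval 302.5 to 321) and 349 CPM in WT (333 to 365), and in Paneth-like cells, which secrete antimicrobial peptides at the crypt base, 162 CPM in KO and 176 CPM in WT. In enterocyte-like cells the same pooled sums gave 3.03 CPM in KO and 4.41 CPM in WT. Cells of at least 2000 UMIs were thinned to 2000 UMIs. An Ifitm3 UMI was then held by 35.3% of KO and 40.5% of WT cycling-like cells, against 0.297% of KO and 0.333% of WT goblet-like cells. Cells under 2000 UMIs were left out: 3 KO and 2 WT cycling-like cells, and 7 of 344 KO and 128 of 729 WT goblet-like cells. The unthinned median depths were 68067 and 38991.5 UMIs in cycling-like and 25780.5 and 4849 UMIs in goblet-like cells. Bst2 was also higher in these classes than in the pooled enterocyte-like and goblet-like cells, with 21.3 CPM in KO and 24.8 CPM in WT cycling-like cells and 35.4 and 27.8 CPM in KO and WT Paneth-like cells.

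In WT, the other members were higher in enterocyte-like and goblet-like than in cycling-like cells. Rsad2 had 5 UMIs in 187 KO cycling-like cells and 3 UMIs in 128 WT ones, 0.360 and 0.555 CPM, against 55.4 CPM in WT enterocyte-like cells. Rtp4 stood at 2.52 CPM in KO and 4.44 CPM in WT cycling-like cells, and Xaf1 at 3.67 and 3.88 CPM. Ifi27l2b was 82.5 CPM in KO and 95.3 CPM in WT cycling-like cells, while goblet-like cells held 622 and 1092 CPM. In the cycling-like class the Poisson intervals of KO and WT overlapped for 7 of 8 members, all but Ifitm3, and Ifi44 was counted 18 times in KO and 2 times in WT cells. These cells came from 1 mouse of each genotype where a hashtag was read, so they allow no test, and the Poisson intervals cover counting error only.

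**Figure D3:**
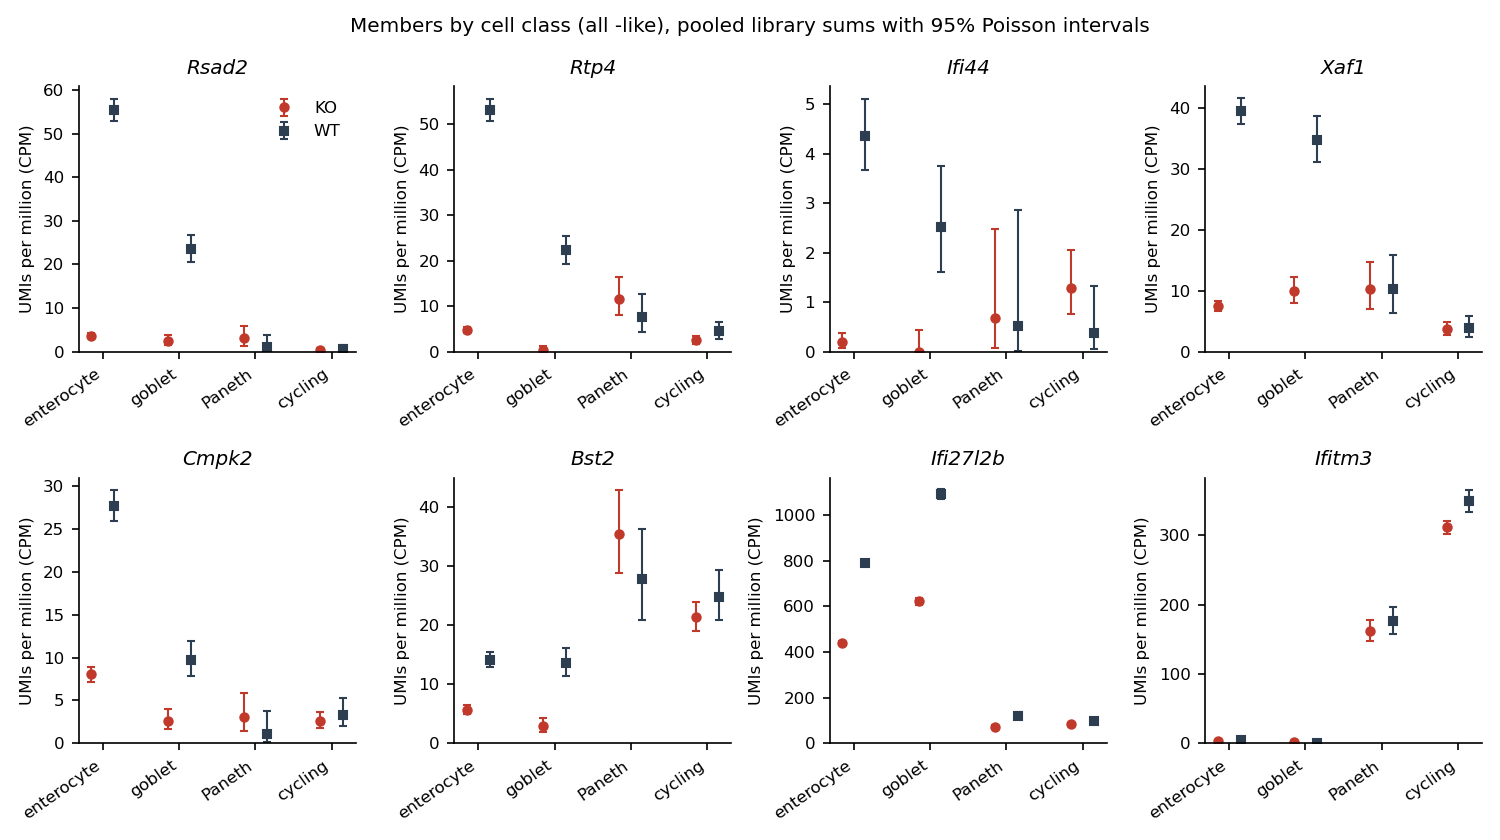
Pooled level of each member in CPM (linear axis from 0) in 4 cell classes, KO in red left of WT in dark blue, with exact 95% Poisson intervals that cover counting error only. WT stands above KO in enterocyte-like and goblet-like cells for all members but Ifitm3 in goblet-like cells, whereas in cycling-like cells Ifitm3 reaches 312 and 349 CPM and Rsad2 is near 0 in both.

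Of the scarcer classes, tuft-like cells (21 KO and 20 WT) held 0 Rtp4 UMIs in KO (an upper Poisson bound of 9.94 CPM) and 19 in WT (58.3 CPM). Xaf1 had 1 UMI in KO and 22 in WT tuft-like cells, and Bst2 had 4 in KO and 29 in WT. Enteroendocrine-like cells (44 of each) had Rsad2 at 9.24 CPM in KO and 11.5 CPM in WT, with overlapping Poisson intervals. An unnamed cluster of 81 KO and 37 WT cells was led by S100a9, Anxa1 and Srgn, with Epcam at 1735 CPM and Ptprc at 35.1 CPM. It was the class with the highest KO level of Rsad2: 20.1 CPM in KO (73 UMIs, in 10 cells) and 6.88 CPM in WT (11 UMIs, in 2 cells). In the same cluster Rtp4 went the other way, with 14.0 CPM in KO and 61.3 CPM in WT, and Ifitm3 stood at 213 CPM in KO and 91.3 CPM in WT. Its leading genes fell to 2 clusters at a clustering resolution of 2 instead of 1. An Anxa1-led cluster (55 KO and 28 WT cells) had Ptprc at 2.54 CPM. A cluster led by S100a8 and S100a9 (28 KO and 8 WT cells) had Ptprc at 1143 CPM and Epcam at 491 CPM. Which of the 2 held the Rsad2 UMIs was not tested. The remaining unnamed cells held Ifitm3 at 48.0 CPM in KO and 95.4 CPM in WT. With 1 pool per genotype these are descriptions.

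Enterocyte-like cells were themselves distributed unevenly: cluster 0 held 56 KO and 1249 WT cells, cluster 2 held 832 and 117, and cluster 6 held 581 and 47. The comparison was therefore repeated inside each of the 9 enterocyte-like clusters with at least 20 cells of both libraries. Rsad2, Rtp4, Xaf1, Bst2 and Ifi27l2b were lower in KO in 9 of 9 clusters, Cmpk2 and Ifi44 in 8 of 9, and Ifitm3 in 6 of 9. The share of all genes lower in as many clusters was not counted, and some directions rest on few UMIs. WT cells of cluster 6 held 4 Rsad2 UMIs (11.6 CPM, against 8.75 CPM in KO) and 1 UMI each of Cmpk2, Bst2 and Ifi44. WT cells of cluster 2 held 1 Bst2 UMI, and cluster 9 held 2 Rsad2 UMIs in KO and 6 in WT. Rsad2 ranged from 0.164 to 8.75 CPM over the KO clusters and from 1.16 to 96.8 CPM over the WT ones. Rtp4 ranged from 2.10 to 11.9 CPM over the KO and from 21.7 to 86.6 CPM over the WT clusters, so its ranges did not meet. The lowest WT value of both genes was that of cluster 9, which KO2 and WT2 held almost alone.

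Enterocytes change their programme as they climb the villus, so the cells were also split into 3 equal ranges by a score of villus top minus villus bottom genes. The ranges are cuts of a continuous score, with 8.87% of cells within 0.05 of a cut. They differed in depth: median depths in the low range were 14033 to 41089.5 UMIs in KO and 9886 to 18672.5 UMIs in WT mice. In the high range they were 7310 to 8958.5 UMIs in KO and 8232 to 9204 UMIs in WT mice. Bst2 was highest low on the villus, with means of 7.85, 1.19 and 0.293 CPM in KO and 22.1, 5.83 and 2.17 CPM in WT in the low, middle and high ranges. Within each range every KO mouse was under every WT mouse, which was not so over all enterocyte-like cells. In the high range this rests on few Bst2 UMIs: 0.340, 0.538 and 0 CPM in KO mice, against 2.77, 1.43 and 2.32 CPM in WT mice. The KO sums there were 1355835 to 2941214 UMIs per mouse. Ifi27l2b followed the same order, with 679, 314 and 223 CPM in KO and 1090, 666 and 465 CPM in WT, and so did Xaf1, with 12.3, 6.34 and 3.11 CPM in KO and 53.5, 39.4 and 21.8 CPM in WT. Ifi44 was found mainly in the low range of WT mice, at 6.92, 6.94 and 5.44 CPM, and its middle range rests on WT2 (11.4 CPM, against 0 and 0.336 CPM in WT1 and WT3).

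Rsad2 did not follow that order. Its WT means were 41.1 ± 14.9, 74.7 ± 43.1 and 51.3 ± 17.7 CPM in the low, middle and high ranges, with 124 CPM in the middle range of WT2, and the spread between mice covered the differences between ranges. Its KO means were 1.79, 8.01 and 5.402 CPM. Rtp4 means were 7.48, 4.19 and 2.61 CPM in KO and 61.2, 53.3 and 46.0 CPM in WT from low to high, with SDs of 9.03 to 15.8 CPM in WT. Rsad2, Rtp4, Xaf1, Cmpk2, Bst2 and Ifi27l2b had every KO mouse under every WT mouse in all 3 ranges. The share of all genes that separated so was not counted in these ranges, so no conclusion is drawn from this. Ifitm3 overlapped in all 3.

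**Figure D4:**
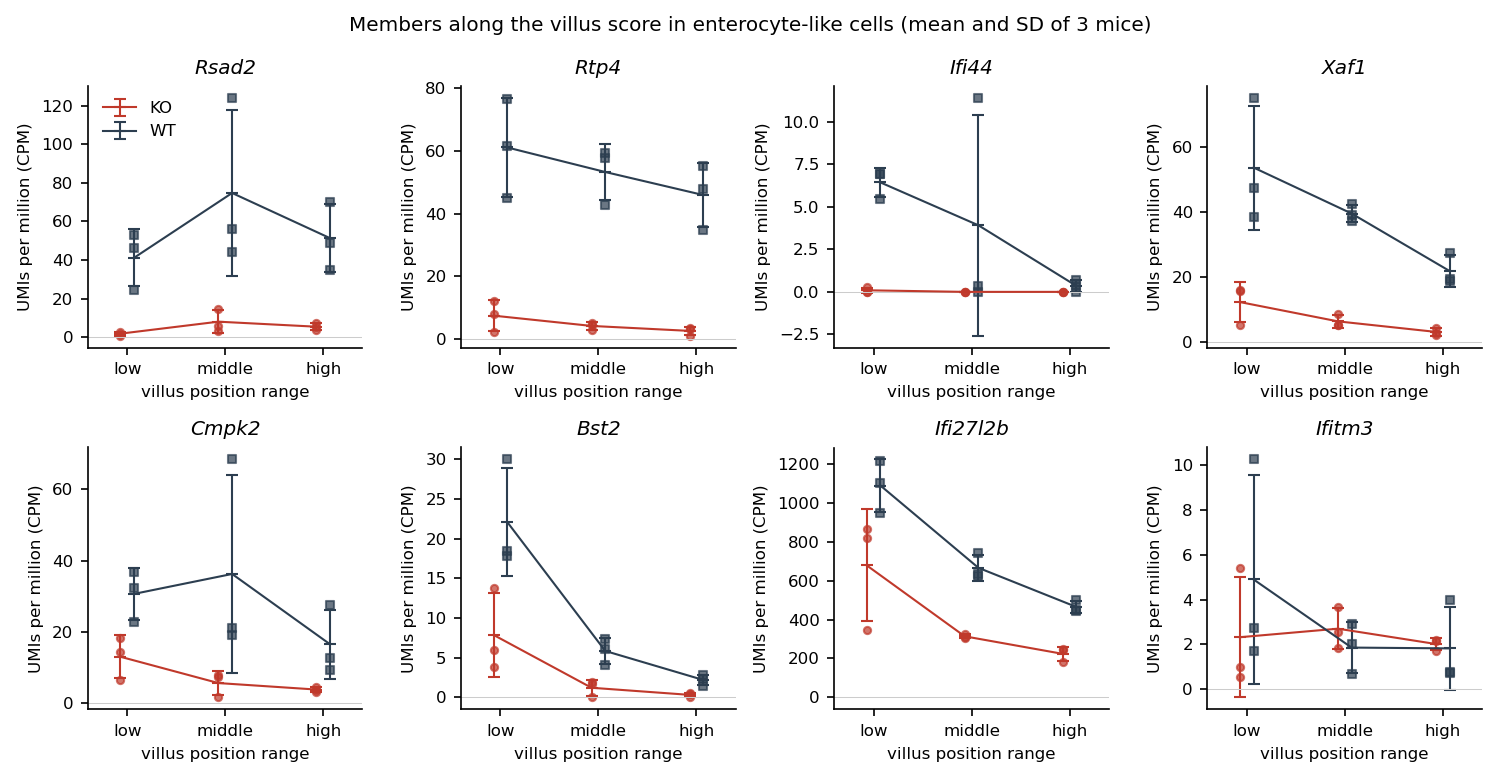
Level of each member in CPM (linear axis) in the low, middle and high ranges of the villus score of enterocyte-like cells, KO in red drawn left of WT in dark blue; points are mice, lines join the means and bars are the SD of 3 mice. Bst2, Ifi27l2b and Xaf1 decline up the villus in both genotypes while Rsad2 does not, and the WT2 point at 124 CPM sets the middle mean of Rsad2.

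The members also differed in how their UMIs were shared out among cells. In WT enterocyte-like cells the richest 1% of cells (34 cells) held 51.4% of all Rsad2 UMIs and 37.6% of Cmpk2 UMIs. The share was 15.3% for Rtp4, although Rsad2 and Rtp4 had similar totals (1873 and 1793 UMIs). For Ifi44, Ifitm3 and Bst2 it was 68.7%, 67.8% and 46.96%, but of smaller totals (147, 149 and 477 UMIs). Xaf1 had a share of 17.7%, and that of Ifi27l2b was below that of Rtp4. The richest WT cell held 126 Rsad2 UMIs, and no KO enterocyte-like cell held more than 4. Cells with at least 5 Rsad2 UMIs, a limit set after seeing the data, numbered 0 in the 845, 589 and 646 cells of KO1 to KO3 (and 0 of all 2891 KO enterocyte-like cells, which allows a share of up to 0.104%), against 14 of 617, 9 of 565 and 18 of 880 in WT1 to WT3 and 24 of 1269 WT cells without a hashtag. They were 1.95% of WT enterocyte-like cells and held 61.7% of the Rsad2 UMIs. They occurred in 8 of 10 enterocyte-like clusters, most often in clusters 11 (5.04% of WT cells) and 3 (3.42%), and numbered 0 in clusters 6 and 9.

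These 65 WT cells were chosen by Rsad2, and their other levels are given as description. Cmpk2 stood at 340 CPM in them and at 18.7 CPM in the other 3266 WT enterocyte-like cells, Ifi44 at 45.1 and 3.17 CPM, Rtp4 at 159 and 50.02 CPM, and Xaf1 at 129 and 37.0 CPM. Ifi27l2b, at 1203 and 778 CPM, and Ifitm3, at 7.35 and 4.33 CPM, differed less. Their median depth was 9831 UMIs, against 7508.5 in the other cells. With these cells left out, Rsad2 still stood at 5.14, 2.90 and 2.50 CPM in KO mice (which had none of them), against 16.03, 12.1 and 28.9 CPM in WT mice, and Cmpk2 at 10.6, 6.15 and 9.19 CPM in KO mice, against 14.1, 14.9 and 23.6 CPM in WT mice.

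At an equal depth of 2000 UMIs per cell, a Rtp4 UMI was seen in 1.07%, 1.37% and 0.470% of enterocyte-like cells of the KO mice, against 8.33%, 9.58% and 11.3% of those of the WT mice, with 1.08 to 1.12 UMIs per positive WT cell. Rsad2 was seen in 1.31%, 1.20% and 0.313% of KO cells, against 4.0%, 5.06% and 7.09% of WT cells, with 1.75 to 2.96 UMIs per positive WT cell. Without thinning, a Rsad2 UMI was seen in 3.94% of KO cells (median depth 9144 UMIs) and in 15.8% of WT cells (7549 UMIs) of the enterocyte-like class. In cycling-like cells, where Rsad2 is scarce, the unthinned shares were 1.60% in KO and 2.34% in WT at the far higher median depths of 68067 and 38991.5 UMIs. No UMI of Rsad2, Cmpk2, Ifi44, Rtp4 or Xaf1 was seen in 95.9% to 96.6% of thinned KO cells and 74.2% to 80.8% of thinned WT cells, so at this depth most WT cells also showed none of the 5.

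**Figure D5:**
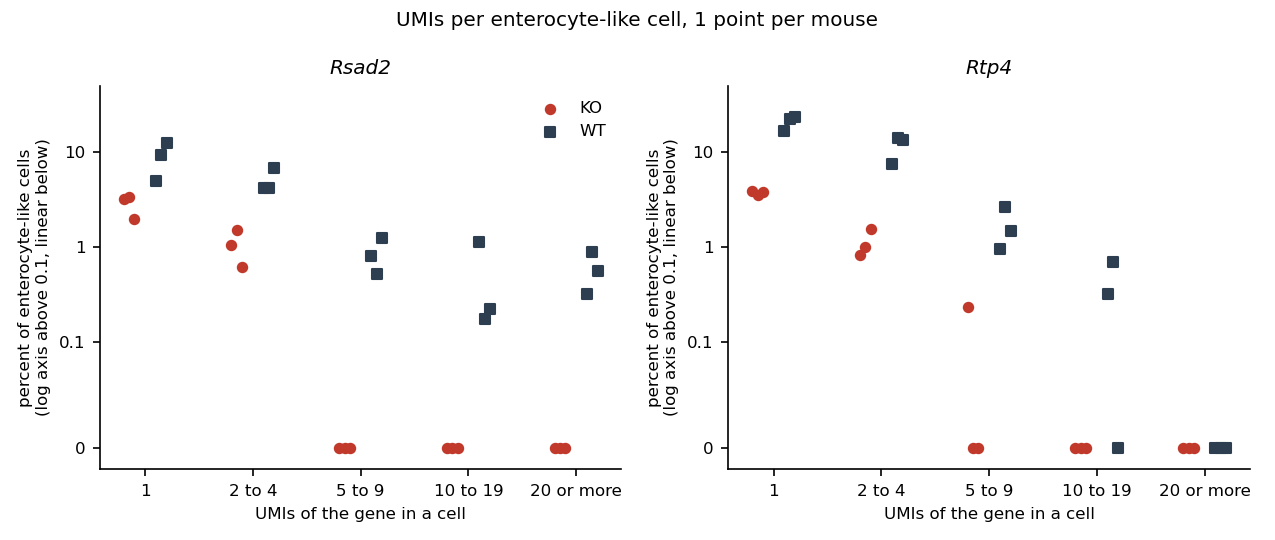
Percent of enterocyte-like cells with 1, 2 to 4, 5 to 9, 10 to 19, and 20 or more UMIs of Rsad2 (left panel) and Rtp4 (right panel), 1 point per mouse, KO in red left of WT in dark blue; the vertical axis is logarithmic above 0.1% and linear below. Rsad2 has WT cells in every bin up to 20 or more while the KO mice end at 2 to 4, and Rtp4 has no cell of either genotype with 20 or more.

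Cells that carried no hashtag entered no test and serve as a further measurement from the same 2 pools. Among enterocyte-like cells there were 811 of them in KO and 1269 in WT, with median depths of 7407 and 5028 UMIs. Rsad2 stood at 4.17 CPM in KO and 75.1 CPM in WT, Rtp4 at 4.76 and 53.4 CPM, Ifi44 at 0.496 and 5.604 CPM, and Xaf1 at 5.75 and 39.2 CPM. Cmpk2 was at 7.34 CPM in KO and 32.1 CPM in WT, Bst2 at 3.97 and 14.1 CPM, Ifi27l2b at 418 and 794 CPM, and Ifitm3 at 3.27 and 4.29 CPM. The order of the ratios was close to that in the hashtagged mice, with Ifi44, Rsad2 and Rtp4 lowest and Ifitm3 highest.

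Of 50 other interferon-stimulated genes listed by name, 41 were tested in enterocyte-like cells, and 40 of the 41 had a negative estimate. Without a block 0 passed the edgeR threshold in either direction, and with the block 36 were lower and 1 higher, at a median log2 fold change of -1.34 in the list and 0.06 over all genes tested (-2.08 over the 8 members). The lowest were Oas2 (-4.17 ± 0.31), a 2′-5′ oligoadenylate synthetase, Usp18 (-3.63 ± 0.24), which removes ISG15 and damps interferon signalling, and Herc6 (-3.37 ± 0.21), an ISG15 ligase in mice. The highest were Ifitm2 (0.76 ± 0.18), Samd9l (-0.40 ± 0.14) and Parp9 (-0.46 ± 0.14), of which only Ifitm2 passed (adjusted p = 0.0294 in the blocked edgeR fit). In goblet-like cells, without a block, 27 of 36 were lower and 0 higher, with a median of -1.02 in the list, -2.15 over the 6 members tested and 0.00 over all genes. The lowest there were Usp18 (-7.98 ± 1.06), Ifit1 (-4.80 ± 0.57) and Trim30a (-4.30 ± 0.70), and the highest were Ifitm2 (0.89 ± 0.36), Parp12 (0.00 ± 0.13) and Samd9l (-0.07 ± 0.11). Over all cells 43 were tested, and 0 passed without and 23, all lower, with the block.

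Ifitm2 lies in the same family as Ifitm3, and like it was highest in the mice with hashtag 2 (34.8 CPM in KO2 and 19.5 CPM in WT2 enterocyte-like cells, against 1.72 to 4.70 CPM in the other mice). Reads of similar family members can be divided differently by counting, so the split between Ifitm2 and Ifitm3 may be uncertain. The same may hold for Ifi27l2a (0.0707 to 3.87 CPM in enterocyte-like cells) and Ifi27l2b. How alike the sequences of either pair are was not tested. Whether intronic reads were counted is not given in the sources used here.

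Markers of immune cells were near 0 in enterocyte-like cells. The neutrophil list summed to 1.13 to 2.15 CPM in KO and 0.0990 to 3.33 CPM in WT mice (Clec4d at 0), the macrophage list to 0.340 to 0.547 CPM in KO and 0.334 to 1.07 CPM in WT mice (Adgre1 and Fcgr1 at 0), and the T cell list to 0.566 to 1.20 CPM in KO and 0.594 to 2.47 CPM in WT mice (Cd3g, Cd3d, Cd8a, Gzmb and Nkg7 at 0). The list of B and plasma cells was 0 to 0.849 CPM in KO and 6.35 to 6.87 CPM in WT mice (Mzb1 at 0), and its part in the member results was not tested. The Paneth list moved with genotype as well, at 527 to 780 CPM in KO and 269 to 341 CPM in WT mice, and the stem list at 34.0 to 37.4 CPM in KO and 52.4 to 57.2 CPM in WT mice. The part of either list was not tested.

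The genes most like each member were sought over 6 points, the KO and WT sums of cycling-like, enterocyte-like and goblet-like cells, among 7729 genes, by Pearson's r of log2(CPM + 1). The points share libraries and include the genotype difference itself, so the values are a description. Rsad2 was nearest to Herc6 (r = 0.996), Xaf1 (0.980) and Oasl2 (0.972). Rtp4 was nearest to Rnf213 (0.967), Trp53bp2 (0.953) and Irf9 (0.945), and Ifi44 to Oas1a (0.928) and Rnf213 (0.895). Xaf1 was nearest to Rsad2 (0.980), Herc6 (0.976) and Map2k3 (0.9753), and Cmpk2 to Ifit1 (0.987), Stk40 (0.985) and Myo10 (0.976). Ifi27l2b was nearest to Ehd4 (0.999), Btg1 (0.992) and H2-T23 (0.991). Bst2 had lower values, with Ube2v1 (0.955), Rnf146 (0.939) and Fkbp5 (0.928), and Ifitm3 was nearest to Fgfbp1 (0.998), Cep295 (0.998) and Cops4 (0.997).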

How the data were processed

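Small intestinal epithelium of 3 KO and 3 WT mice was measured as 1 pooled 10x 3′ library per genotype. The deposited matrices hold raw UMI counts per gene and per hashtag in the barcodes called as cells. The authors made these counts with Cell Ranger 7.0.1 and mm10, per the submitters' processing notes, which also name Seurat 4.1.0 without its role. Whether intronic reads were counted is not given in the sources used here. Barcodes with at least 1000 UMIs, 500 genes and at most 25% mitochondrial UMIs were kept.

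Mice were told apart by HTODemux (Seurat 5.3.0, quantile 0.99). Doublets of 2 hashtags, 305 in KO and 549 in WT, were left out, doublets within a mouse stay in, and 855 KO and 2241 WT cells without a hashtag entered the clustering but no test. A hashtag ratio of at least 3 gave another mouse to 0 KO and 9 WT cells. Cells were clustered with scanpy 1.11.5 and leidenalg 0.10.2 (resolution 1) and named from marker lists. The lead of 0.15 over the next class and the limit of 100 CPM of Epcam for immune names were set after the clusters had been seen.

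Counts were summed per mouse and tested with edgeR 4.0.16 in R 4.3.3 (quasi-likelihood test, TMM scaling, filterByExpr), with Benjamini-Hochberg adjustment over all genes tested and a threshold of 0.05. The standard errors of edgeR fold changes are approximate: each is the size of the log2 fold change divided by the square root of the F statistic. The scripts were tested on simulated data. The simulated mice were independent, without a deviation shared by KO2 and WT2, so the simulation does not show what the unblocked test can call here. No exact permutation test is given for single genes, since 3 against 3 mice cannot go below p = 0.1. Nothing says that the mice came from separate litters or days. Mice of equal hashtag number deviated together from their genotype means (correlations of 0.416, 0.854 and 0.638 over all cells and 0.657, 0.883 and 0.655 in enterocyte-like cells). So did KO1 with WT3 (0.638 and 0.722) and KO3 with WT1 (0.461 and 0.497). Unequal pairs with KO2 or WT2 were negative (-0.764 to -0.524 and -0.826 to -0.677). The values thus set KO2 and WT2 apart but do not pair the other mice by number. The block on the number is printed beside those results. In goblet-like cells the correlations were 0.0923, 0.00373 and 0.0505. Poisson intervals and limits from a count of 0 cover counting error only.

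The members and lists were chosen with earlier results of these data known. All 10 members are named, and of the other interferon-stimulated genes the 3 lowest and the 3 highest. Alternatives were DESeq2 1.42.0, other scaling, no low-count filter, the block, each mouse left out, the hashtag ratio, a mitochondrial limit of 50% and other cluster resolutions. RefSeq promoter windows of the GRCm38.p6 build were searched for the response element core. 1 gene among those most like a member is not reported here.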

Additional observations from a re-analysis of the deposited data

How the results depend on the processing

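Over all cells, where the unblocked edgeR test called 0 of 8 members lower in KO, DESeq2 called 4 (0.177% of genes were lower) and the replicate block 7 (0.973%). With the block and 1 pair of mice left out, which leaves 2 mice per genotype, 3 to 7 members were called. In enterocyte-like cells, also 0 of 8 in that test, DESeq2 called 5, the fit with no low-count filter 1 and the replicate block 7 (6.58% of genes were lower). With the block and any 1 pair left out 7 were called again. Other choices, made after seeing the data, changed these counts as well. Leaving out the clusters held by KO2 and WT2 gave 3 members over all cells (6 with the block) and 7 in enterocyte-like cells (7 with the block). In the unblocked fits of these, 0.078% and 2.63% of genes were lower. Leaving out the mice KO2 and WT2, without a block, gave 2 and 7 (0.0623% and 4.32% of genes were lower in these fits). Leaving out any single mouse, the other scaling and the stricter hashtag rule gave 0 in both sets. In goblet-like cells 6 members stayed called with the replicate block (224 of 8508 genes were lower), with 3 to 6 when a pair was left out as well (3 without pair 3), and 7 with no low-count filter, where Ifi44 was added. The share of all genes lower is not given here for blocked fits with a pair or those clusters left out. Nor is it given for the enterocyte-like fit with no low-count filter. The interaction called 0 members in every fit. Over all cells and enterocyte-like cells 14 of 16 log2 fold changes were newly called with the block. The sign turned in 1 case among the planned fits: Ifitm3 over all cells, never called, was 0.28, but -1.29 without KO2, -0.11 without WT1 and -0.18 without WT3 (1.96 without WT2). Counts of genes moved too: lower and higher genes numbered 0 and 0 over all cells without and 126 and 26 with the block, and 0 and 0 without and 703 and 754 with it in enterocyte-like cells. DESeq2 gave 32 and 6 over all cells and 43 and 11 in enterocyte-like cells. In goblet-like cells they were 219 and 121, then 420 and 228 with no low-count filter, 80 and 44 without KO2 and 430 and 231 without WT2. The cause of these changes was not tested. Depth limits Ifi44 and, in enterocyte-like and goblet-like cells, Ifitm3, which rest on few UMIs.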
